A study of Mus musculus with 30 samples.

Results

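Tap1, Tap2, Tapbp, Tapbpl and Erap1 are 5 genes whose products carry, load and trim the peptides that MHC class I molecules display. They were chosen by symbol for their known function, at a time when earlier results of these data were known. They are 5 of the 31427 gene symbols in the deposited table. RNA was sequenced from DC3.2, a dendritic cell line of the mouse, and 30 libraries were deposited. There are 24 replicated libraries, 2 for each of 12 groups, made from 4 genotypes (WT, IRF1KO, IRF2KO and DKO, in which both IRF1 and IRF2 are targeted) and 3 treatments of 2 h (media alone, IFNα at 5000 U/mL, IFNγ at 2 ng/mL). A further 6 libraries, each the only one of its kind, cover WT and IRF2KO cells at 0 h, with IFNα for 2 h at the same dose, and with LPS for 2 h at a dose the labels do not give. The titles of the replicated libraries write nosg for WT, IRF1sg for IRF1KO and IRF2sg for IRF2KO. A non-targeting control is not named, and whether a line is 1 clone or a pool is not said. Titles of the replicated libraries begin DC32R and those of the single libraries Dc3.2, and the meaning of the difference is not given.

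Values are TPM, a transcript's share of its library after scaling for transcript length. No read totals are kept, which leaves the sequencing depth unknown. A replicated library held 10911 to 11101 genes at 1 TPM or more, and the 2 replicates of a group correlated across genes with r from 0.991 to 0.996, where genes are not independent replicates. Of 10 genes listed as dendritic cell markers, 7 reached 1 TPM in over 12 of the 24 libraries. These were Itgax, Batf3, Irf8, Cd74, H2-Aa, Ptprc and Zbtb46, the last with a median of 1.06 TPM and in only 13 libraries. In the same 24 libraries Flt3, a receptor of dendritic cell precursors, was listed at 0. Xcr1 and Clec9a, markers of cross-presenting dendritic cells, stayed at or under 0.26 TPM. Of 6 lymphocyte and 5 fibroblast markers none reached 1 TPM in over 12 libraries, with summed levels of at most 0.33 and 0.26 TPM. Among macrophage and monocyte markers, 4 of the 5 that the table holds did. Their sum ran from 449 to 703 TPM in WT and from 428 to 889 TPM in DKO, and its part in the results was not tested. The targeted mRNAs were still present. In WT media Irf1 had 19.7 and 22.5 TPM, against 30.6 and 23.6 TPM in IRF1KO and 28.1 and 36.01 TPM in DKO. Irf2 had 23.4 and 25.2 TPM in WT media, against 18.2 and 17.35 TPM in IRF2KO and 20.1 and 20.96 TPM in DKO. Mean Irf2 was below WT in IRF2KO and DKO under each treatment, and with IFNγ it was 22.2 and 19.55 against 32.0 TPM. Mean Irf1 with IFNγ was 676 TPM in IRF1KO and 612 TPM in DKO, against 470 TPM in WT. A frameshift can remove a protein and leave its mRNA, and the edits are therefore not checked by these levels.

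Cells cut their proteins into peptides with the proteasome, and the transporter TAP, built from one TAP1 and one TAP2 chain, pumps these peptides into the endoplasmic reticulum. There tapasin, the product of Tapbp, holds an empty MHC class I molecule next to TAP and favours well-fitting peptides, TAPBPR, the product of Tapbpl, exchanges peptides away from TAP, and the aminopeptidase ERAP1 trims peptides that are too long. Interferons raise many genes of this pathway, and the transcription factors IRF1 and IRF2 bind the same kind of DNA element in interferon-responsive promoters.

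On GRCm38 (GENCODE vM21), Tap1 lies on chromosome 17 from 34187553 to 34197225 and Tap2 from 34203527 to 34216321, both on the plus strand. Between them is Psmb8, an immunoproteasome subunit gene, which starts 496 bases after Tap1 ends and ends 2073 bases before Tap2 begins. Psmb9, another immunoproteasome subunit gene, runs the opposite way, and its gene model overlaps the start of Tap1 by 212 bases. Whether the counting used strand is not given in the sources used here, so reads from that overlap cannot be assigned with certainty. Tapbp lies on the same chromosome from 33915899 to 33929292 on the plus strand. Tapbpl lies on chromosome 6 from 125223933 to 125231860 on the minus strand, and Erap1 on chromosome 13 from 74639568 to 74693201 on the plus strand.

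The RefSeq promoter table (GRCm38.p6, 250 bases before to 50 after a start site) holds 3 of the 5 genes: Tap1, Tapbp and Erap1. Erap1 and Tap1 are printed because, of these 3 genes, Erap1 had the lowest level in DKO under each treatment, while Tap1 rose with interferon in every genotype. An IRF-type motif, GAAANNGAAA on either strand, was searched for, with a GAS-type motif, TTCNNNGAA, an element of promoters that respond to IFNγ. Capitals mark a match. The windows are chr13:74639603-74639902 for Erap1 and chr17:34187306-34187605 for Tap1, both on the plus strand. That of Tapbp, not printed, is chr17:33919228-33919527. The Erap1 and Tapbp windows lie inside the GENCODE gene models and do not cover the gene starts given above.
Erap1: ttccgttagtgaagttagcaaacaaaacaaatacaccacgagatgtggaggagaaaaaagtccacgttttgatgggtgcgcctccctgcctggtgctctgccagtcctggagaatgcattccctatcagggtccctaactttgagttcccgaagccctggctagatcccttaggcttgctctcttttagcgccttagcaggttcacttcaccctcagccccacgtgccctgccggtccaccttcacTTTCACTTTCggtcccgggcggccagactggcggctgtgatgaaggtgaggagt
Tap1: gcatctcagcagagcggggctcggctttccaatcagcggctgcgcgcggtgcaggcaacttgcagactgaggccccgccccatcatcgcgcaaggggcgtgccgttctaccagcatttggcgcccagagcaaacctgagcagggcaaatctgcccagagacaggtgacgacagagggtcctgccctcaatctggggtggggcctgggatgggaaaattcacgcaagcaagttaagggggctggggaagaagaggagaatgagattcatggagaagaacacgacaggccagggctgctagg
The Erap1 window held 1 IRF-type match, on the minus strand (read on the plus strand as TTTCACTTTC), from position −4 to position 6 around the start site, and no GAS-type match. Neither the Tap1 nor the Tapbp window held a match to either motif. Of 32851 promoters of this length 3.44% held the IRF-type motif and 8.30% the GAS-type motif. The Tap1 window shares 275 bases with that of Psmb9, in which no match was found either. A match of letters is a description and shows no binding, and its absence from 300 bases says nothing of sites elsewhere.

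Across the 12 groups the 5 genes followed different courses. Tap1 rose after IFNα and after IFNγ in each of the 4 genotypes. Tap2 and Erap1 fell in DKO under all 3 treatments, to a small part of the WT level. No call was made for Tapbp or Tapbpl in any of the 36 comparisons of the limma fit of group means. Some alternative fits, given below for each gene, did call them. Between the highest and the lowest group mean, the TPM differed 31.0-fold for Tap2, 15.9-fold for Erap1, 12.9-fold for Tap1, 6.18-fold for Tapbpl and 2.67-fold for Tapbp. Below, a fold is a ratio of mean TPM, a log2 value is a limma estimate on log2(TPM + 1) with its SE and n = 2 libraries a group, and a gene is called, or said to have risen or fallen, at an adjusted p under 0.05. The labels do not say whether replicates came from separate cultures, and p-values here reflect only how far apart these libraries lie, which may be technical. A lower level in every cell cannot be told apart from loss in only some of the cells.

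**Figure D1:**
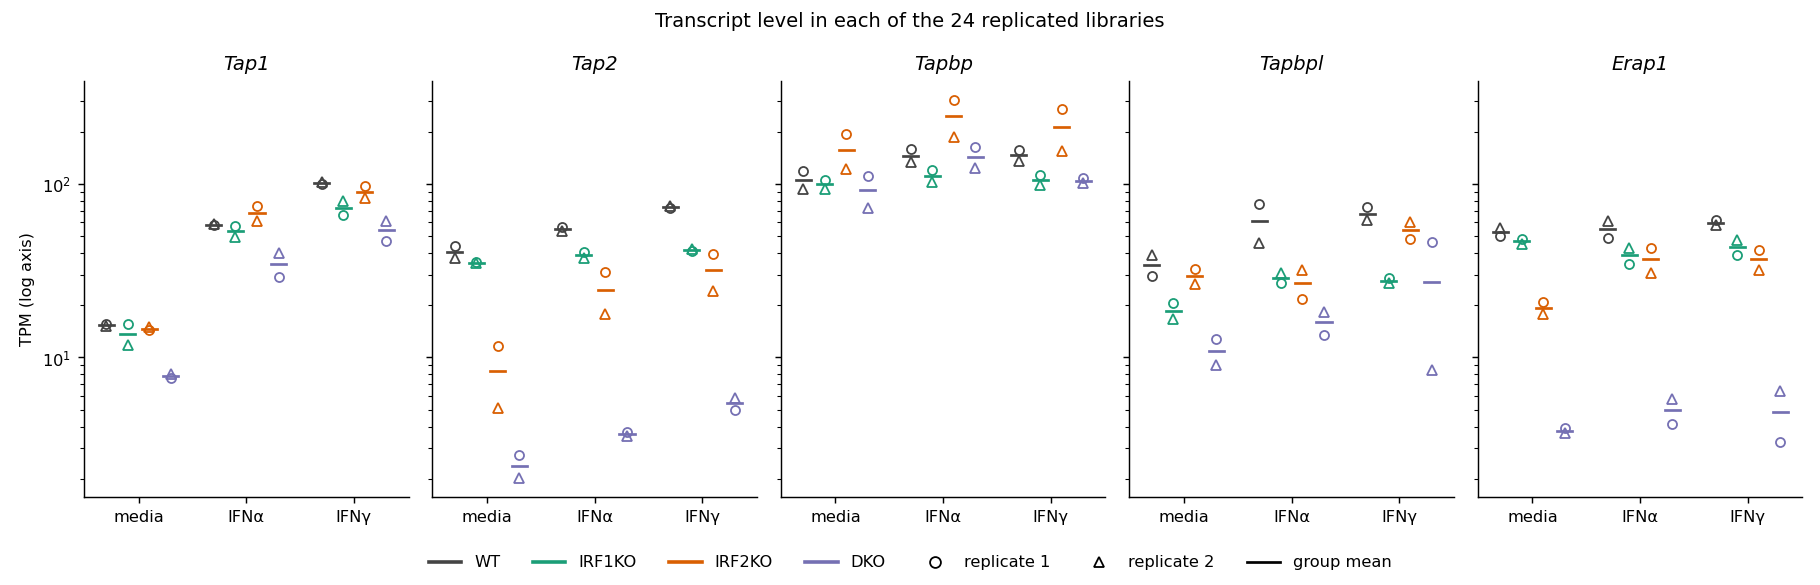
TPM on a log axis (vertical) of each gene in the 24 replicated libraries, by treatment (horizontal) and genotype (colour). Circles are replicate 1, triangles replicate 2 and bars the means of the 2. Tap1 is higher in every interferon group than in media of the same genotype, and Tap2 and Erap1 stay at or under 6.39 TPM in all DKO libraries.

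Tap1, the first chain of the transporter, had 15.5 and 15.3 TPM in the 2 WT libraries in media, 57.8 and 58.5 TPM with IFNα, and 99.7 and 102 TPM with IFNγ. In IRF1KO the values were 15.6 and 11.8, then 57.0 and 49.6, then 65.8 and 79.6 TPM, in the same order of treatments. In IRF2KO they were 14.4 and 15, then 74.9 and 60.8, then 96.8 and 82.8 TPM. In media these 3 genotypes lay close together, and the interferon libraries were far above all of them. In DKO the values were 7.59 and 8.06, then 29.3 and 40.2, then 46.6 and 61.3 TPM. Both DKO libraries were the lowest 2 of the 8 under media and under IFNα and under IFNγ.

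With IFNα, Tap1 rose 3.78-fold in WT (log2 1.85 ± 0.17, adjusted p = 4.74e-06), 3.88-fold in IRF1KO (1.89), 4.62-fold in IRF2KO (2.13) and 4.44-fold in DKO (2.00). With IFNγ it rose 6.56-fold in WT (2.64 ± 0.17, adjusted p = 5.43e-08), 5.30-fold in IRF1KO (2.33), 6.12-fold in IRF2KO (2.53) and 6.89-fold in DKO (2.63). The response of DKO minus that of WT was 0.15 ± 0.24 with IFNα and −0.01 ± 0.24 with IFNγ, and neither was called (adjusted p = 1.0 for both). The level at which this response started and ended was lower in DKO. Tap1 fell against WT by 0.89 on the log2 scale in media (SE 0.17, 1.97-fold, adjusted p = 0.0185) and by 0.90 with IFNγ (1.87-fold, adjusted p = 0.0110). The IFNα difference was −0.74 ± 0.17 (adjusted p = 0.0514, and 0.0326 in a fit that adds the replicate number as a block, below called the replicate block). These calls are near the threshold. That in media was lost when any 1 of the 4 libraries was left out (−0.93 to −0.85), and that with IFNγ without WT replicate 1 (−0.92), WT replicate 2 (−0.89) or DKO replicate 1 (−0.71). Without DKO replicate 2 the IFNα difference was called, at −0.97.

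IFNγ gave a higher level of Tap1 than IFNα in WT by 0.78 ± 0.17 (1.73-fold, adjusted p = 0.0464), a call that was lost when any 1 of the 4 libraries was left out (0.77 to 0.80). In IRF1KO, IRF2KO and DKO the same difference was 0.44, 0.40 and 0.62, each with an SE of 0.17, and was not called. Whether it differs between genotypes was not tested. In the order of the group means, the 4 media groups came lowest, and DKO with IFNα, at 34.7 ± 7.76 TPM (SD, n = 2), was the lowest interferon group. The libraries of DKO with IFNγ overlapped those of both neighbours, IRF1KO with IFNα and WT with IFNα.

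Tap2, the other chain of the transporter, had 43.9 and 37.6 TPM in WT media, 56.8 and 53.3 TPM with IFNα, and 72.5 and 74.9 TPM with IFNγ. In IRF1KO the values were 35.4 and 35.1, then 40.8 and 37.5, then 41.1 and 42.3 TPM. In IRF2KO they were 11.6 and 5.09, then 30.9 and 17.8, then 39.3 and 24.2 TPM, so replicate 1 was above replicate 2 under each treatment. In DKO they were 2.73 and 2.02, then 3.74 and 3.52, then 5.01 and 5.86 TPM, and all 6 libraries were below every WT and every IRF1KO library. Among the DKO and IRF2KO libraries only the IRF2KO media replicate 2 came within the range of the DKO values.

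In media Tap2 fell by 2.25 on the log2 scale in IRF2KO against WT (SE 0.29, 4.87-fold, adjusted p = 0.000401) and in DKO (−3.63, 17.2-fold, adjusted p = 1.39e-06), while IRF1KO differed by −0.20 ± 0.29 and was not called. It also fell in DKO with IFNα (−3.60, 15.2-fold) and with IFNγ (−3.54, 13.6-fold). The IRF2KO difference was smaller in size under interferon, at −1.19 with IFNα (adjusted p = 0.0717, and 0.0151 with the replicate block) and −1.23 with IFNγ (adjusted p = 0.0656, and 0.0140 with the block). Without IRF2KO replicate 1 the IFNα difference was called, at −1.58.

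Tap2 rose with interferon in IRF2KO, 2.91-fold with IFNα (1.48 ± 0.29, adjusted p = 0.00972) and 3.80-fold with IFNγ (1.86 ± 0.29, adjusted p = 0.00166). In WT the values were 0.43 with IFNα and 0.84 with IFNγ, in IRF1KO 0.15 and 0.24, and in DKO 0.46 and 0.94, and none of these was called. The response of IRF2KO minus that of WT was 1.05 ± 0.41 with IFNα (adjusted p = 0.91) and 1.02 ± 0.41 with IFNγ (adjusted p = 1.0), so the responses were not shown to differ. The IFNα call was lost without IRF2KO media replicate 2 (0.95) or IRF2KO IFNα replicate 1 (1.10), and the IFNγ call without IRF2KO IFNγ replicate 1 (1.53). In the order of group means the 3 DKO groups were lowest, then the 3 IRF2KO groups, and the highest was WT with IFNγ, at 73.7 ± 1.68 TPM.

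Because one chain of each kind forms the transporter and TPM is scaled for length, the 2 levels can be set beside each other within a library. In the replicated libraries the Tap1 entry pools 5 transcripts and that of Tap2 holds 1, while in the single libraries Tap1 pools 2. How far the ratio depends on this transcript set was not tested. Which of the 2 genes is higher is therefore a statement on TPM alone. In WT media the ratio of Tap1 to Tap2 TPM was 0.353 and 0.406, with IFNα 1.02 and 1.10, and with IFNγ 1.37 and 1.36. IRF1KO gave 0.441 and 0.337 in media, 1.40 and 1.32 with IFNα, and 1.60 and 1.88 with IFNγ. In the replicated libraries of both genotypes Tap2 had the higher TPM in media and Tap1 under interferon. In IRF2KO the ratio was 1.23 and 2.95 in media, 2.42 and 3.42 with IFNα, and 2.47 and 3.42 with IFNγ. In DKO it was 2.78 and 3.99 in media, 7.82 and 11.4 with IFNα, and 9.31 and 10.5 with IFNγ. Tap1 therefore exceeded Tap2 in every replicated IRF2KO and DKO library, media included. No protein was measured, and a ratio of mRNA does not give the amount of each protein chain.

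**Figure D2:**
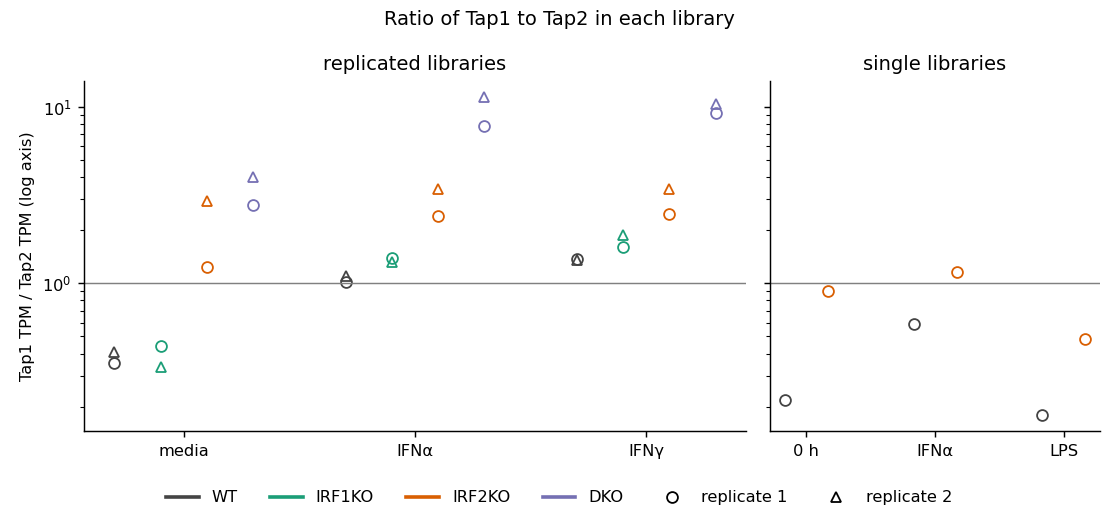
Ratio of Tap1 TPM to Tap2 TPM on a log axis (vertical) in each replicated library (left) and each single library (right), by treatment (horizontal) and genotype (colour). The grey line marks equal TPM. WT and IRF1KO media libraries lie below it, from 0.337 to 0.441, and all DKO libraries above it, from 2.78 to 11.4.

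Tapbp, which encodes tapasin, was the most abundant of the 5 transcripts in all 24 libraries. It had 119 and 93.1 TPM in WT media, 158 and 133 TPM with IFNα, and 157 and 135 TPM with IFNγ. In IRF1KO the values were 106 and 93.1, then 121 and 102, then 112 and 98.4 TPM. In IRF2KO they were 194 and 121, then 305 and 186, then 272 and 156 TPM. In DKO they were 111 and 72.7, then 163 and 124, then 108 and 101 TPM. Both IRF2KO libraries were above both WT libraries in media and with IFNα, and with IFNγ IRF2KO replicate 2 lay between the WT values. In the order of the group means all neighbours overlapped except IRF1KO with IFNα and DKO with IFNα.

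Replicate 1 was above replicate 2 in 12 of 12 groups for Tapbp, by 0.39 on average on the log2 scale (from 0.10 to 0.80), and 6.87% of the tested genes had as large a mean difference between the replicate numbers. The difference of IRF2KO from WT was 0.54 ± 0.29 in media, 0.71 ± 0.29 with IFNα and 0.49 ± 0.29 with IFNγ, and none was called (adjusted p = 0.732, 0.458 and 0.696). Within replicate number 1 these differences were 0.70, 0.94 and 0.79, and within number 2 they were 0.38, 0.48 and 0.20. With the replicate block the IFNα difference was called (adjusted p = 0.0262), and so were the lower levels in DKO than in IRF2KO with IFNα (−0.74, adjusted p = 0.0483) and with IFNγ (−0.97, adjusted p = 0.00439). DKO differed from WT by −0.23, −0.03 and −0.48, which was not called with or without the block.

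Tapbpl, which encodes the tapasin-like editor TAPBPR, had 29.3 and 38.9 TPM in WT media, 76.6 and 45.9 TPM with IFNα, and 73.3 and 61.6 TPM with IFNγ. In IRF1KO the values were 20.5 and 16.7, then 27.0 and 30.7, then 28.7 and 26.8 TPM, and these were below the WT libraries of the same treatment in every case. In IRF2KO they were 32.3 and 26.6, then 21.8 and 31.8, then 48.4 and 60.4 TPM. In DKO they were 12.8 and 9.06, then 13.5 and 18.3, then 46.2 and 8.43 TPM. The 2 DKO libraries with IFNγ stood 5.48-fold apart, the widest gap between replicates of any of the 5 genes. In the order of the group means, gaps between neighbours fell above DKO in media, above IRF1KO in media and above WT in media, and the other neighbours overlapped.

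DKO differed from WT in Tapbpl by −1.56 ± 0.48 in media (3.13-fold lower mean), −1.85 ± 0.48 with IFNα (3.84-fold) and −1.69 ± 0.48 with IFNγ (2.47-fold), and none was called (adjusted p = 0.28, 0.11 and 0.14). IRF1KO differed from WT by −0.83, −1.02 and −1.25, also not called (adjusted p = 1.0 in each). The SE of Tapbpl was the largest of the 5. The value with IFNγ rests on the replicates: without DKO replicate 1 it was −2.85 and was called, as were DKO against IRF1KO (−1.61) and DKO against IRF2KO (−2.55), and without DKO replicate 2 it was −0.53. The rise of Tapbpl with IFNγ in DKO, at 0.84 and not called with both libraries, was 2.00 and called without replicate 2 and −0.32 without replicate 1, and IFNγ against IFNα in DKO was 0.33 with both, 1.49 and called without replicate 2, and −0.83 without replicate 1.

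Erap1, the trimming peptidase, had 50.2 and 56.0 TPM in WT media, 48.7 and 61.2 TPM with IFNα, and 61.6 and 58.1 TPM with IFNγ. In IRF1KO the values were 48.3 and 44.8, then 34.8 and 43.0, then 39.0 and 47.3 TPM. In IRF2KO they were 20.9 and 17.7, then 42.8 and 30.7, then 41.8 and 31.8 TPM. In DKO they were 3.90 and 3.65, then 4.16 and 5.77, then 3.26 and 6.39 TPM. All 6 DKO libraries were below the lowest of the other 18, and the IRF2KO media libraries were the next lowest. In the order of the group means, DKO with IFNγ overlapped both neighbours, DKO in media and DKO with IFNα, which did not overlap each other.

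In media Erap1 fell by 1.41 on the log2 scale in IRF2KO against WT (SE 0.23, 2.75-fold, adjusted p = 0.00532), a call that was lost without WT replicate 2 (−1.34) or IRF2KO replicate 2 (−1.30). In DKO it fell in media (−3.50, 14.1-fold, adjusted p = 2.24e-07), with IFNα (−3.23, 11.1-fold, adjusted p = 4.28e-07) and with IFNγ (−3.44, 12.4-fold, adjusted p = 2.25e-07). Under interferon the IRF2KO difference was −0.58 with IFNα and −0.70 with IFNγ, neither of them called. Unlike Tap1, Erap1 was not called in any response to interferon: the values were 0.04 with IFNα and 0.17 with IFNγ in WT, −0.26 and −0.11 in IRF1KO, 0.88 and 0.89 in IRF2KO (adjusted p = 0.12 for both) and 0.31 and 0.23 in DKO.

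The 3 mutants were set against WT under each treatment to ask which of the 5 genes depend on either factor, as the labels name the lines. In IRF1KO against WT, 0 of 5 were called in media, where 0% of the 11842 genes tested were called (305 had an unadjusted p under 0.05 in limma), 0 of 5 with IFNα (0.177% of genes) and 0 of 5 with IFNγ (0.236%). All 5 estimates were below 0 under each treatment, from −0.83 to −0.08 in media, from −1.02 to −0.13 with IFNα and from −1.25 to −0.47 with IFNγ. The medians over all genes tested were 0.02, 0.02 and 0.01 in that order, and the share of all genes below 0 was not computed. For Tap1 in media the difference was 0.01 within replicate number 1 and −0.34 within number 2. In IRF2KO against WT, 2 of 5 fell in media, Tap2 and Erap1 (0.836% of genes were called), 0 of 5 with IFNα (0.971%) and 0 of 5 with IFNγ (0.802%). With the replicate block 2 of 5 fell in media (213 of the 11842 genes were called, in either direction). Under the block Tap2 fell and Tapbp rose with IFNα (254 genes), and Tap2 fell with IFNγ (259 genes). In DKO against WT, 3 of 5 fell in media, Tap1, Tap2 and Erap1 (0.76% of genes), 2 of 5 with IFNα, Tap2 and Erap1 (1.05%), and 3 of 5 with IFNγ, again Tap1, Tap2 and Erap1 (1.31%). With the block Tap1 also fell with IFNα, which made 3 of 5 (260 genes). The same 3 fell under the block in media (190 genes) and with IFNγ (362 genes). The median log2 fold change of the 5 in DKO was −1.56, −1.85 and −1.69, beside 0.06, 0.03 and 0 over all genes tested. These comparisons share their WT libraries.

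**Figure D3:**
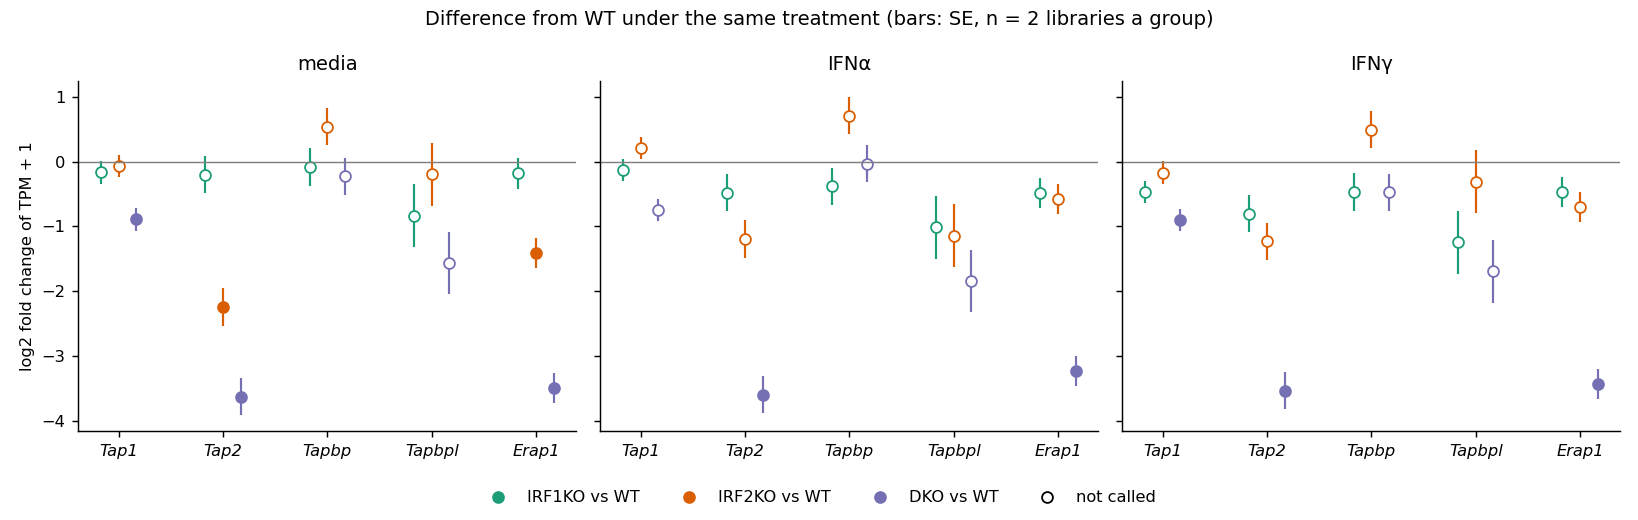
Log2 fold change of TPM + 1 (vertical) of each gene (horizontal) in IRF1KO, IRF2KO and DKO against WT, with a panel for each treatment. Bars are the SE, filled points were called and open points were not. The DKO points of Tap2 and Erap1 lie between −3.63 and −3.23 under all 3 treatments.

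DKO was also set against each single mutant. Against IRF2KO, 1 of 5 fell in media, Erap1 by 2.08 on the log2 scale (5.12-fold; 0.118% of genes were called). With the replicate block Tap2 also fell (−1.39, adjusted p = 0.0253 against 0.128 without the block), where 23 of the 11842 genes were called. Without IRF2KO media replicate 2 the Tap2 difference was −1.91. With IFNα 3 of 5 fell (0.38% of genes), Tap1 (−0.95), Tap2 (−2.40) and Erap1 (−2.65). The Tap1 call was lost without IRF2KO replicate 1 (−0.81) or DKO replicate 1 (−0.73). With IFNγ 2 of 5 fell (0.481%), Tap2 (−2.31) and Erap1 (−2.74). Under the block Tapbp fell as well, which made 4 of 5 with IFNα (69 of the 11842 genes were called) and 3 of 5 with IFNγ (79). Against IRF1KO, 2 of 5, Tap2 and Erap1, fell in media (0.667% of genes), with IFNα (0.844%) and with IFNγ (0.819%). The differences in that order were −3.43, −3.11 and −2.73 for Tap2 and −3.32, −2.75 and −2.97 for Erap1. Tap1 differed by −0.73 in media, which was called only with the block (adjusted p = 0.0446 against 0.0812). Under the block 201 of the 11842 genes were called there.

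The difference of DKO from WT can be set against the sum of the 2 single-mutant differences on the log2 scale. For Erap1 with IFNα, IRF1KO differed from WT by −0.49, IRF2KO by −0.58 and DKO by −3.23, and the departure of DKO from that sum was −2.17 ± 0.33 (adjusted p = 0.0478). With IFNγ the 3 differences were −0.47, −0.70 and −3.44, and the departure was −2.27 ± 0.33 (adjusted p = 0.0149). In media they were −0.18, −1.41 and −3.50, and the departure of −1.90 ± 0.33 was not called (adjusted p = 0.139). Erap1 was the 1 of 5 called with IFNα, where 0.0169% of genes were called (2 genes, the other being Psmb8), and the 1 of 5 with IFNγ (0.0422%), while 0 of 5 were called in media (0.0169%). The IFNα call was lost with the replicate block (adjusted p = 0.0514) and the IFNγ call was kept (0.0153). Leaving out 1 library ended the IFNα call in 6 of 8 cases (all except IRF2KO replicate 2 and DKO replicate 2), with values from −2.40 to −1.94 over the 8, and the IFNγ call in the same 6 of 8, with values from −2.67 to −1.87. For Tap2 the departure was −1.18 in media, −1.92 with IFNα and −1.51 with IFNγ, each ± 0.41 and not called.

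Each genotype was set against its own media group to describe the response to interferon. With IFNα 1 of 5 rose in WT (1.04% of genes were called), 1 of 5 in IRF1KO (0.819%) and 1 of 5 in DKO (1.01%), in each case Tap1, and 2 of 5 in IRF2KO, Tap1 and Tap2 (1.39%). With IFNγ 1 of 5 rose in WT (1.26%), in IRF1KO (1.16%) and in DKO (0.777%), again Tap1, and 2 of 5 in IRF2KO, Tap1 and Tap2 (1.13%). IFNγ against IFNα gave 1 of 5 in WT, Tap1 (0.768%), and 0 of 5 in IRF1KO (0.946%), IRF2KO (0.819%) and DKO (0.904%). For Tapbp the responses ran from 0.08 to 0.66 and for Tapbpl from −0.15 to 0.97, all short of a call.

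**Figure D4:**
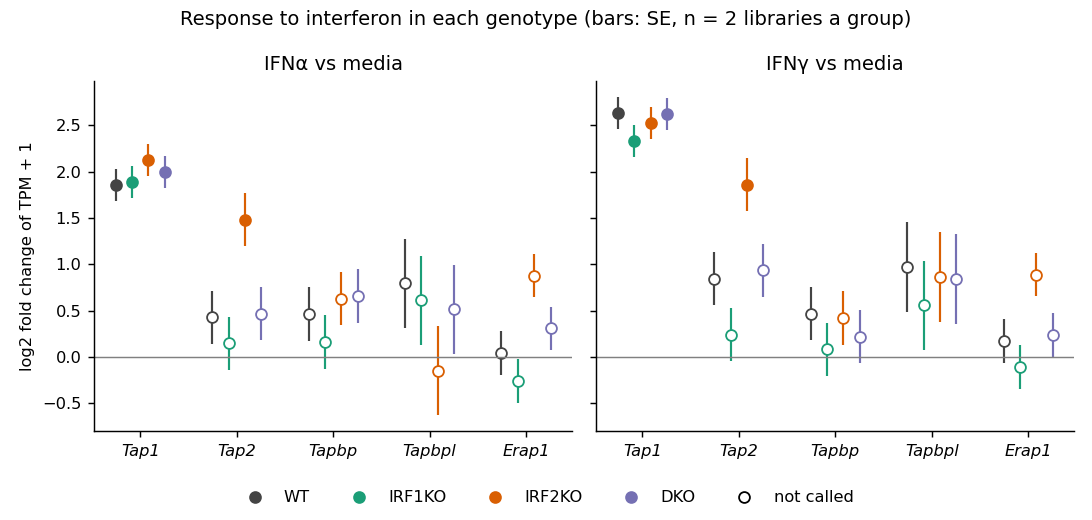
Log2 fold change of TPM + 1 (vertical) of each gene (horizontal) for IFNα (left) and IFNγ (right) against media, by genotype (colour). Bars are the SE, filled points were called and open points were not. Tap1 is called in all 4 genotypes, from 1.85 to 2.13 with IFNα and from 2.33 to 2.64 with IFNγ, and Tap2 in IRF2KO alone.

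The responses were then compared between genotypes in the same limma fit, and 0 of 5 genes were called in any of the 6 comparisons with WT. The background was 0.0253% of genes for IRF1KO with IFNα, 0.0844% for IRF1KO with IFNγ, 0.0676% for IRF2KO with IFNα, 0.0338% for IRF2KO with IFNγ, 0.0844% for DKO with IFNα and 0.0929% for DKO with IFNγ. Few genes of any kind were called in these comparisons, and the SE of a member's difference was from 0.24 for Tap1 to 0.68 for Tapbpl. The largest differences in size were those of Tap2 in IRF2KO, 1.05 and 1.02, followed by Tapbpl in IRF2KO with IFNα, at −0.94 ± 0.68.

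Likeness was taken as Pearson's r over the 12 group means of log2(TPM + 1), among 258 genes with a mean of at least 5 TPM and an SD of at least 0.5 over the groups. The points share genotypes and treatments, so r is a description. Tap2 and Erap1 were alike (r = 0.965), while Tap1 was less like either, with r = 0.51 to Tap2 and 0.37 to Erap1. The genes most like Tap1 were Nlrc5, a transactivator of MHC class I genes (0.966), and the interferon-inducible GTPase genes Igtp (0.965) and Irgm2 (0.964). Most like Tap2 were Psme1 (0.978) and Psme2 (0.965), the 2 PA28 proteasome activator subunits, and Erap1. Most like Erap1 were Psme2 (0.970), Psme1 (0.965) and Tap2. For Tapbpl they were Psmb9 (0.90), Tyr (0.87) and Psme1 (0.83), and for Tapbp, whose own SD of 0.43 was under that minimum, Trafd1 (0.92), Psmb8 (0.88) and Ifi47 (0.84).

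Upstream of the transporter, all 5 immunoproteasome and PA28 genes fell in DKO against WT in media (0.76% of genes were called), with IFNα (1.05%) and with IFNγ (1.31%). Their median log2 fold change was −1.73, −1.68 and −1.77 in that order, where the median of all tested genes was 0.06, 0.03 and 0. Psmb9, which shares its start region with Tap1, fell 10.7-fold in DKO in media, from 32.0 ± 0.14 to 2.98 ± 0.10 TPM (−3.05 ± 0.22), against 1.97-fold for Tap1. Psmb8, between Tap1 and Tap2, fell 2.10-fold there (−1.07 ± 0.12). In IRF2KO media Psmb8 rose by 0.88 ± 0.12 and Psme1 fell by 0.96 on the log2 scale, while Tap2 beside Psmb8 fell. With the replicate block 3 of these 5 genes fell in IRF2KO media in place of 1 (213 of the 11842 genes were called, in place of 99). Psmb8 was called for the departure from the summed single-mutant differences under each treatment, at −1.57 in media, −1.57 with IFNα and −1.17 with IFNγ.

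Downstream, 2 of the 11 tested class I chains and loading partners fell in DKO against WT in media (0.76% of genes were called), with IFNα (1.05%) and with IFNγ (1.31%). These were the class I heavy chains H2-K1 (−0.75, −0.78 and −0.71) and H2-D1 (−0.39, −0.46 and −0.47). H2-M3, a nonclassical class I chain, rose by 0.73 in IRF2KO against WT with IFNα. Of 8 other peptidases, Lap3, a cytosolic aminopeptidase, rose by 0.51 with IFNγ in WT, and no other call was made in the 36 comparisons. None of the 7 endoplasmic reticulum housekeeping genes and none of the 5 half-transporter genes of the same ABC subfamily was called in any of the 36. Among 10 regulators, 4 rose with IFNα in WT (1.04% of genes were called) and 6 with IFNγ (1.26%). With IFNα 4 rose in IRF1KO (0.819%), 6 in IRF2KO (1.39%) and 4 in DKO (1.01%). With IFNγ 6 rose in IRF1KO (1.16%), 6 in IRF2KO (1.13%) and 6 in DKO (0.777%). Irf1 rose by 3.03 with IFNα and 4.40 with IFNγ in WT. Nlrc5 rose with IFNγ in WT from 11.5 to 34.8 TPM (1.51 ± 0.27), and it was called with IFNγ in all 4 genotypes. With IFNα Nlrc5 was called in IRF2KO (1.22), and in all 4 once the replicate number was a block. In DKO with IFNγ, Irf2 (−0.69) and Stat2 (−1.21) fell against WT.

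The 6 single libraries give a second set of WT and IRF2KO cells, quantified on another transcript set, so levels are not set against those above. With 1 library a group, no test was made. Tap2 had 28.1 TPM in WT at 0 h, 52.2 with IFNα and 36.8 with LPS, against 10.2, 33.1 and 11.2 TPM in IRF2KO. Erap1 had 47.2, 50.9 and 43.0 TPM in WT against 17.3, 29.7 and 16.1 TPM in IRF2KO. For both genes the IRF2KO value was lower under each treatment. At least a 2-fold difference on the log2(TPM + 1) scale between IRF2KO and WT was reached by 2 of 5 genes at 0 h (Tap2 −1.38 and Erap1 −1.40; 1.22% of 10410 genes did so), 0 of 5 with IFNα (Tap2 −0.64 and Erap1 −0.76; 1.19%) and 2 of 5 with LPS (Tap2 −1.63 and Erap1 −1.36; 1.05%).

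Tap1 had 6.15 TPM in WT at 0 h, 30.8 with IFNα and 6.56 with LPS, and in IRF2KO 9.21, 38.4 and 5.45 TPM. It was high in both IFNα libraries and low in the other 4. Tapbp had 72.9, 96.7 and 90.3 TPM in WT and 88.1, 158 and 123 TPM in IRF2KO, higher in IRF2KO under each treatment. Tapbpl had 55.2, 89.3 and 67.7 TPM in WT and 53.8, 71.8 and 57.7 TPM in IRF2KO. IFNα against 0 h reached 2-fold for 1 of 5 genes in WT (Tap1 2.15; 1.83% of genes) and 2 of 5 in IRF2KO (Tap1 1.95 and Tap2 1.61; 2.06%). LPS against 0 h reached it for 0 of 5 in WT (3.08%) and 0 of 5 in IRF2KO (4.28%). The ratio of Tap1 to Tap2 was 0.219 at 0 h, 0.591 with IFNα and 0.178 with LPS in WT, and 0.906, 1.16 and 0.485 in IRF2KO, so it was higher in IRF2KO under each treatment.

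**Figure D5:**
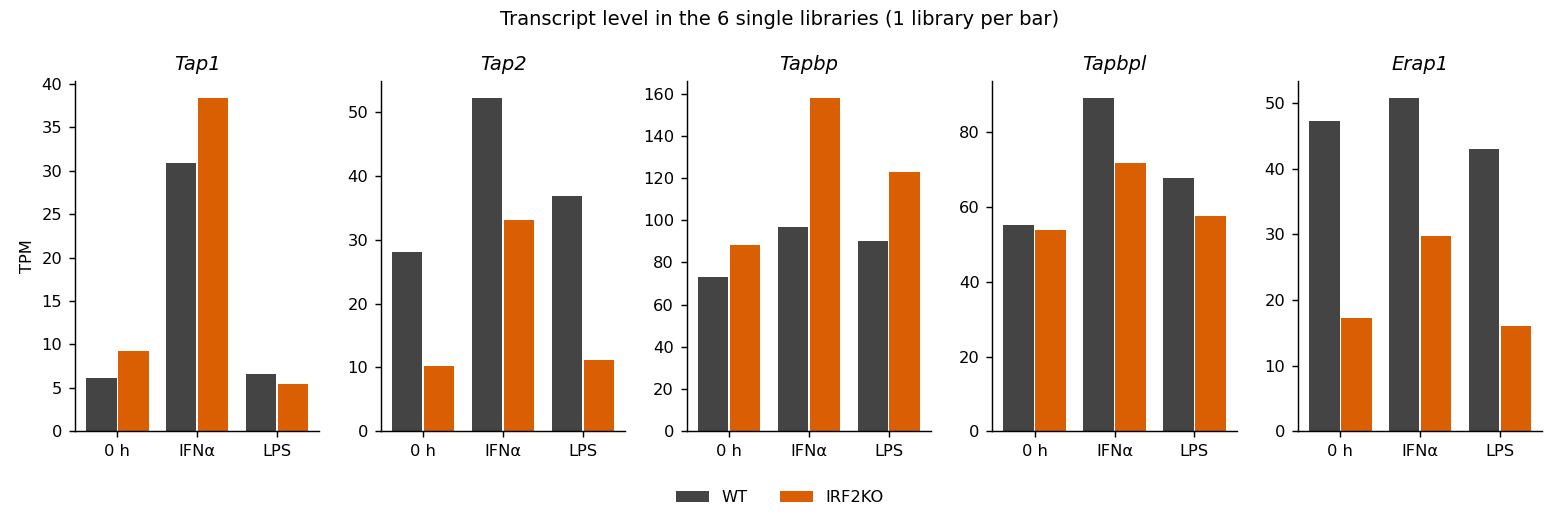
TPM (vertical) of each gene in the 6 single libraries, by treatment (horizontal) and genotype (colour), with 1 library per bar and no error. Tap2 and Erap1 are lower in IRF2KO in all 3 pairs, and Tap1 is 30.8 and 38.4 TPM with IFNα and at most 9.21 TPM elsewhere.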

How the data were processed

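The authors deposited TPM values for 30 libraries, used as given. The submitters' processing notes name bcl2fastq 2.20, Bowtie 0.12.2, RSEM and the builds mm10 and GRCm38, without their roles. Of 41346 entries, 9919 symbols stand in 2, and Tap1 and Erap1 are among them. Entries of a symbol were summed within the 24 replicated and within the 6 single libraries. With no counts, no count model was used.

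In R 4.3.3, limma 3.58.1 with a trended prior was fitted to log2(TPM + 1) with 12 group means, keeping the 11842 genes that reached 1 TPM in 2 or more libraries (12 residual degrees of freedom). Tests were two-sided and p-values Benjamini-Hochberg adjusted within each of 36 comparisons. The method was tested on simulated data with known changes in the IRF2KO media group, read in its comparison with WT media. The simulated libraries varied independently, without a shared effect of the replicate number. That test therefore does not check how such an effect, or a comparison of responses, is handled. The 5 genes, the lists and the tests were chosen with earlier results of these data known, so the lists are no independent evidence. Named genes are the 5, Irf1, Irf2, Nlrc5, Psmb8 and Psmb9, up to 3 called genes a list and direction, and the 3 genes most like each of the 5, and 1 other gene of that rule is not reported here. As alternatives, the pseudocount was 0.1 or 5, the filter was dropped or raised to a mean of 5 TPM, and median-ratio and quantile scaling, robust variances, the highest entry, the compared groups alone, the replicate block and leaving out single libraries were tried.

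Libraries with the same replicate number also share a date-like code in their titles, which would make the numbers pairs. The main fit of group means did not use this pairing, and the numbers entered a fit only as the replicate block. The SEs, adjusted p-values and calls given without mention of the block therefore ignore the pairing. For 56 of 66 group pairs, deviations from the group means correlated above 0.1 between same-numbered libraries (range −0.160 to 0.481, median 0.233). Python 3.11.15, numpy 2.4.6, pandas 2.3.3 and matplotlib 3.10.9 served for motifs, single libraries and plots.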

Additional observations from a re-analysis of the deposited data

Results flagged for a closer look

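Departures from additivity were tested for Erap1 as interaction terms, and both interferon treatments gave a call. With IFNα, the effect of targeting IRF2 differed between the IRF1-targeted and WT backgrounds by −2.17 ± 0.33 on the log2 scale (adjusted p = 0.0478, limma, and 0.0514 with the replicate block, which ends the call). With IFNγ it differed by −2.27 ± 0.33 (adjusted p = 0.0149, limma). Erap1 had means of 38.9 and 36.7 TPM in IRF1KO and IRF2KO with IFNα and 4.97 TPM in DKO, and 43.2, 36.8 and 4.83 TPM with IFNγ. Each call was lost in 6 of 8 fits that left out 1 library, and the departure in media, −1.90 ± 0.33, was not called (adjusted p = 0.139).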

How the results depend on the processing

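Of 180 values (5 genes in 36 comparisons) 35 were called, and no called value changed sign under any alternative. The highest entry and a mean of at least 5 TPM changed no call, and robust variances added 1. Numbers of the 5 genes called moved by over 1.5 times as follows. A pseudocount of 0.1 gave 2 in DKO against IRF2KO in media, 0 in IFNγ against IFNα in WT and 0 for the departure from additivity with IFNα. A pseudocount of 5 gave 1 in IRF2KO against WT with IFNα and 1 with IFNγ. No filter gave 0 in IFNγ against IFNα in WT and 0 for the IFNα departure. Median-ratio and quantile scaling each gave 2 in DKO against IRF2KO in media and 1 for the departure in media, and quantile scaling gave 1 in IRF2KO against WT with IFNα. The replicate block gave 2 in DKO against IRF2KO in media (23 of the 11842 genes were called) and 2 in IRF2KO against WT with IFNα (254). It gave 1 in IRF2KO against WT with IFNγ (259) and 0 for the IFNα departure (1). Of the 180 values, the block gained 8 calls and lost 1, a pseudocount of 5 gained 4 and lost 1, median-ratio scaling gained 5 and quantile scaling gained 6. Fits of the compared groups alone, which have fewer samples to estimate the spread, lost 23 of 35 calls. They gave 0 in IRF2KO against WT in media, in DKO against IRF2KO under all 3 treatments, in DKO against IRF1KO with IFNγ, in IFNγ against IFNα in WT, in both responses of IRF1KO and of DKO, and for both interferon departures, and 1 in DKO against IRF1KO with IFNα, in DKO against WT with IFNγ and in both responses of IRF2KO.

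Leaving out 1 library at a time gave, with the lone library assumed to vary like the others, 1 to 2 in IRF2KO against WT in media, 0 to 1 with IFNα, 0 to 0 in IFNγ against IFNα in WT, 0 to 1 for each interferon departure, 1 to 2 in DKO against IRF2KO in media, 1 to 2 in each response of IRF2KO, 1 to 2 in the IFNγ response of DKO and 0 to 1 in IFNγ against IFNα in DKO. Summed over the 36 comparisons, 2598 calls over all genes became 4777 with the replicate block (over 1.5 times apart in 22 comparisons), 503 in the groups alone (33), 1849 with a mean of at least 5 TPM (11), 2801 with no filter (7), 2401 and 2621 with pseudocounts of 0.1 and 5 (7 each) and 2924 with median-ratio scaling (1). Median-ratio scaling shifted the median of all genes by −0.13 to 0.07.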
